A study of Sus scrofa with 16 samples.

Results

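The accessible chromatin regions (ACRs) described here were open in newborn kidney and newborn liver and were not called in heart, lung, skeletal muscle or spleen of the same animals. They were selected on the peak calls themselves. The peaks of the 6 newborn lists on chromosomes 1 to 18 were merged wherever they overlapped by 1 bp, and a merged region was kept when it held a kidney and a liver peak and no peak of the other 4 tissues. This gave 12168 kidney-liver ACRs of 243693 newborn regions (4.99%), covering 6.82 Mb with a median width of 499 bp. They made up 20.1% of the 60436 regions that held both a kidney and a liver peak.

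ATAC-seq, which reads out open DNA through the adaptors that a transposase leaves in it, was applied to 16 libraries from female crossbred domestic pigs. According to the methods of the study, these were Berkshire × Tibetan hybrids, with 2 full sibs collected at each stage. Kidney, liver, heart, lung, skeletal muscle and spleen came from the same 2 newborn pigs (day 0 in the labels), and livers of older pigs were added, from suckling animals of 28 days and adults of 180 days. Each of these 8 groups had 2 libraries. Both had been combined into a single consensus list by the authors, so the counts and shares below have no replicate error, no difference between lists could be tested, and the Wilson 95% intervals cover counting error only. The tissues were whole organs, so a peak found in few cells and a weak peak found in many cells cannot be told apart.

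The tissue labels were checked by peaks in the promoters of marker genes. Of 9 kidney markers, 8 had a promoter peak in the kidney list and 2 in the newborn liver list. Of 10 liver markers, 7 had one in the newborn liver list and 4 in the kidney list. The promoters of the heart, lung, muscle and spleen markers all held a peak in the list of their own tissue, although 3 of 4 muscle markers also had a promoter peak in both the kidney and the liver list. Of 2 erythroid markers matched in the annotation, 1 had a promoter peak in newborn liver and 0 in kidney.

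Kidney and liver are built on different plans but share much of their metabolic work. The proximal tubule and the hepatocyte are polarised epithelial cells that make glucose, break down amino acids and fructose, oxidise fatty acids and move organic anions across their membranes. Transcription factors of the HNF1 and HNF4 families are known to act in both cell types, whereas ONECUT, FOXA and CEBP factors are best known for their roles in hepatocytes.

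Regions near or in CLDN1, ACOX2, NAT8, QPRT, DPYD and EHHADH, all named below for their rank or their gene list, read as follows.
70.7 kb from CLDN1, HNF1 letters, chr13:127659842-127660041: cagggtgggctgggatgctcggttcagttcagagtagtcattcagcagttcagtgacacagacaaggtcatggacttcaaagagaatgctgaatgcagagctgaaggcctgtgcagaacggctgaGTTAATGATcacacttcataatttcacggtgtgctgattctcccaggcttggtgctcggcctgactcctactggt
ACOX2 intron, HNF1 letters, chr13:40251326-40251525: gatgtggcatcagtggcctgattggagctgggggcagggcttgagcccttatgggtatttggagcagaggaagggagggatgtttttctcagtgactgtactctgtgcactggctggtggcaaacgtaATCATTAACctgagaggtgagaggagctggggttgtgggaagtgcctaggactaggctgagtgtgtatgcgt
NAT8 promoter, HNF1 letters, chr3:69250465-69250664: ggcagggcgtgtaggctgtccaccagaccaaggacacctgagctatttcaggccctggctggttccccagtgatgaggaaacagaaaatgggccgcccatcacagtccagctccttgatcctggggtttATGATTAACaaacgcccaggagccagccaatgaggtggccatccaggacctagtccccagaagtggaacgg
QPRT promoter, HNF4 letters, chr3:17987607-17987806: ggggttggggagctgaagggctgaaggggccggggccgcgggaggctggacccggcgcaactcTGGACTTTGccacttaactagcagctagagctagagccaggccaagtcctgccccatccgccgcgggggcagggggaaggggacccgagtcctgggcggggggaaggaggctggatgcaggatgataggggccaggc
DPYD intron, HNF4 letters, chr4:119957929-119958128: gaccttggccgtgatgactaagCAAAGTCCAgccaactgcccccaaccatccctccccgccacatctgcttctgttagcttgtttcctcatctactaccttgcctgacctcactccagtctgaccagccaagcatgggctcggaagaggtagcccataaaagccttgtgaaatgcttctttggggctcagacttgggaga
EHHADH intron, CTCF letters, chr13:123137590-123137789: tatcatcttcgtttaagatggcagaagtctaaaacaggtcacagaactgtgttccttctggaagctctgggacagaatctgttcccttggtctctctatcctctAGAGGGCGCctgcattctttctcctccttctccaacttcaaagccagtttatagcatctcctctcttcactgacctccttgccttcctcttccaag

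These sequences are shown because they carry matches to the 3 consensus sequences whose shares lay furthest above those of both single-organ classes in the counts further on, before peak strength was matched. Capitals mark a match to GTTAATNAT (HNF1), CAAAGTCCA (HNF4) or AGNNGGCGC (CTCF, a DNA-binding factor of chromatin loops and insulation) on either strand, where N is any base. A match is a string of letters and not a measured binding site. The windows were read 5′ to 3′ on the plus strand of Sscrofa11.1 and hold 200 bp around the summit of the stronger peak. All of these regions, which rank high in peak strength, were called again in suckling and in adult liver. Of all kidney-liver ACRs, 75.5% and 56.9% were.

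Kidney and liver formed the most frequent of the 15 possible pairs of newborn tissues in the lists as deposited. Of 43414 regions called in exactly 2 tissues, 28.0% belonged to kidney and liver, 1.95 times the count of the next pair, liver and spleen, with 6247. Heart and muscle shared 3289 regions, and muscle and spleen, the smallest pair, 574. The kidney and liver lists were also the longest, with 128184 and 115504 peaks against 54830 to 81289 in the other newborn lists. When each list was held to its 54830 strongest peaks, the count of kidney-liver ACRs was 3996, and heart and muscle came first with 4432. With an IDR (irreproducible discovery rate, the estimated share of peaks at that level that do not repeat between replicates) of 0.05 or lower in all lists, kidney and liver again led with 2870 regions. The first place of this pair thus depended on the setting, while it stayed among the first 2 in each of them. Both limits also dropped weaker peaks of other tissues, so a region kept under them could hold such a peak in the full lists. With the IDR limit in the kidney and liver lists alone, 967 regions were left.

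**Figure D1:**
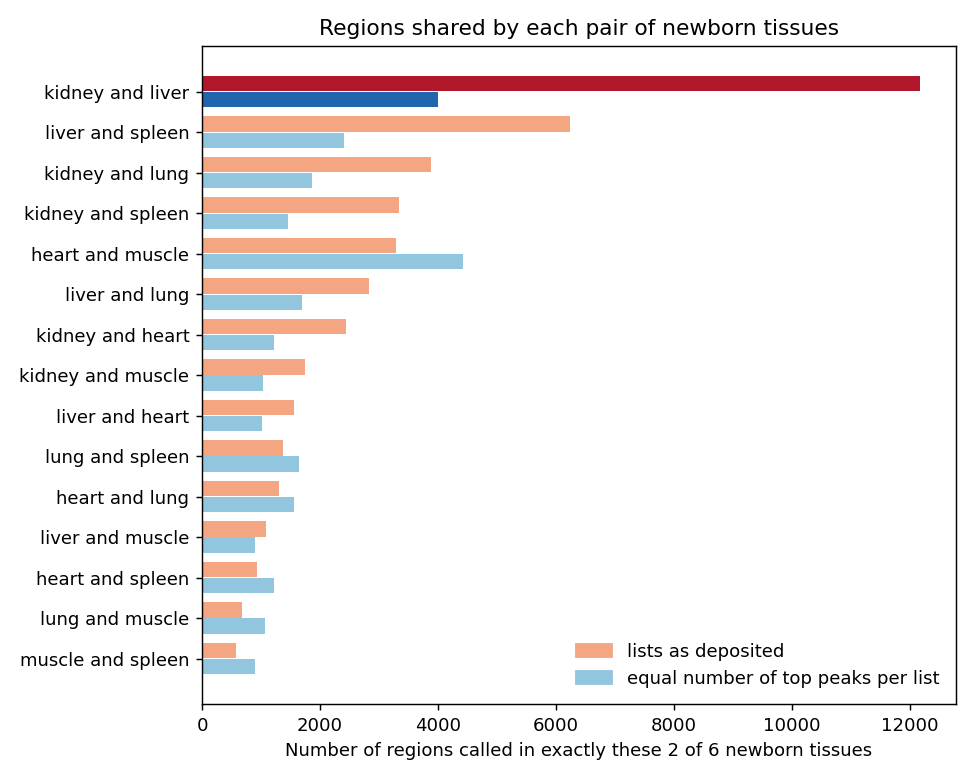
Number of regions called in exactly 2 of the 6 newborn tissues (horizontal axis) for each pair of tissues (vertical axis). Red bars use the lists as deposited and blue bars the 54830 strongest peaks of each list, and the darker bars mark kidney and liver, with 12168 and 3996 regions.

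Kidney-liver ACRs were of middling strength in both organs. These values belong to the calls that chose the regions and are given as a description. Ranked by the smaller replicate −log10 p within its own list, the median kidney peak lay at percentile 52.3 and the median liver peak at percentile 47.8. The median −log10 p was 8.10 and 10.9 in the kidney replicates and 20.1 and 8.63 in the liver replicates. Liver replicate 1 gave the higher value in 75.6% of the regions and kidney replicate 2 in 71.8%, and across the 12168 regions, which all come from the same 4 libraries, the replicates were related with a Spearman's rho of 0.650 in kidney and 0.451 in liver. Strength in one organ said little about strength in the other, with a rho of 0.236 between the kidney and liver percentiles.

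An IDR of 0.05 or lower was reached by 33.3% of the regions in kidney, by 16.6% in liver and by 965 regions (7.93%) in both. In 58.0% neither peak reached it. The peaks of the 2 organs were close to coincident, since 11750 regions held exactly 1 kidney and 1 liver peak, 97.4% had an overlap of at least 50% of the shorter peak, and the summits lay a median of 37 bp apart. In 59.1% of the regions the summits were within 50 bp of each other. At the edge of the selection, 21 regions were kept on a kidney-liver overlap of at most 10 bp, with median percentiles of 18.9 in kidney and 26.5 in liver. Another 2 regions were left out because a peak of another tissue reached them by at most 10 bp, with median percentiles of 54.6 and 44.8. A peak of another tissue lay within 1 kb of 2337 kidney-liver ACRs (19.2%), although none overlapped them.

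The regions lay mostly outside promoters. Of the kidney-liver ACRs, 44.5% fell in introns, 39.97% between genes, 9.17% in exons and 5.87% (5.46 to 6.30) in promoters, taken as 2.2 kb upstream to 500 bp downstream of the transcription start of a protein-coding gene (PCG). The promoter share was 3.66% (3.49 to 3.84) in regions called in kidney alone, 4.16% (3.95 to 4.38) in regions called in liver alone, 9.22% over all newborn regions and 53.3% in regions called in all 6 tissues. The shares were not adjusted for width, whose median was 499 bp in kidney-liver ACRs, 291 bp in kidney-only and 337 bp in liver-only regions. The median distance of kidney-liver ACRs to the nearest PCG start was 30.1 kb. They were spread over all 18 autosomes, from 3.65 per Mb on chromosome 11 to 7.99 per Mb on chromosome 12, and 20.8% lay within 10 kb of another kidney-liver ACR.

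The later livers, from libraries that played no part in the selection, were used to ask how many of these regions were still called after birth. In suckling liver 9187 kidney-liver ACRs (75.5%, 74.7 to 76.3) were called, and in adult liver 6920 (56.9%, 56.0 to 57.7). The suckling list was also the longer, with 135635 peaks against 104770. When only later peaks with an IDR of 0.05 or lower were used, the shares were 33.9% and 33.3%, without a fall of that size. Under this limit the adult list was the longer, with 52733 peaks against 45939. Neither setting thus held list length equal between the ages. Over all newborn regions the background was 42% at 28 days and 34.1% at 180 days. Regions called in newborn liver alone were found again in 57.1% and 54.2%, and regions called in newborn kidney alone in 14.03% and 4.12%. Kidney-liver ACRs were above liver-only regions on 18 of 18 autosomes at 28 days and on 17 of 18 at 180 days. The order at 180 days turned when each list was held to its 54830 strongest peaks, with 75.3% of kidney-liver ACRs and 77.5% of liver-only regions called.

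Most of the regions that persisted did so at both ages. Of the kidney-liver ACRs, 51.7% were called at both later stages, 23.8% at 28 days alone, 5.14% at 180 days alone and 19.4% at neither. In liver-only regions the corresponding shares were 43.2%, 13.9%, 11.0% and 31.9%. The regions called at neither stage had a median newborn liver percentile of 27.9, against 64.3 for those called at both.

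The comparison with liver-only regions depended on age once the strength of the newborn liver peak was taken into account. At 28 days kidney-liver ACRs were called more often in every quintile of the newborn liver list, from 55.9% against 36.5% among the weakest peaks to 97.4% against 93.5% among the strongest. At 180 days they were called less often than liver-only regions in the 3 middle quintiles, with 42.2% against 46.0%, 53.8% against 61.4% and 71.6% against 75.7%. In the weakest and the strongest quintile at 180 days the values were 34.4% against 32.3% and 89.6% against 89.0%, with overlapping intervals. The higher overall share at 180 days was thus not seen at matched strength in these 3 quintiles. Width was not matched, with a median of 499 bp in kidney-liver ACRs and 337 bp in liver-only regions. A later peak counted when it overlapped a region by 1 bp or more, so wider regions had more room for a call.

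**Figure D2:**
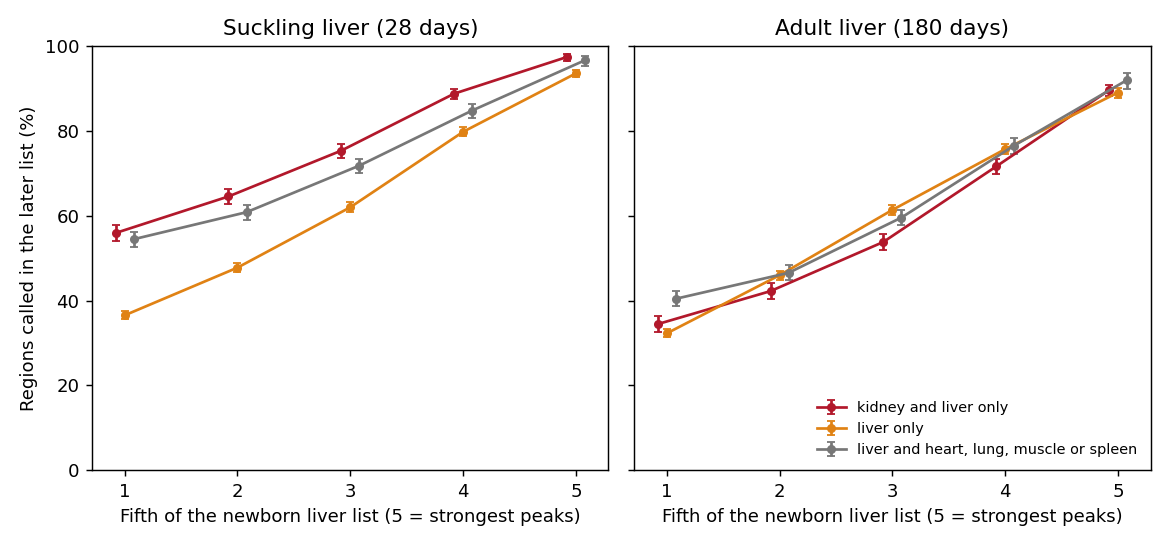
Share of regions called in the suckling (left) and adult (right) liver list in percent, by quintile of the newborn liver list from weak (1) to strong (5) peaks, with Wilson 95% intervals as bars. Kidney-liver ACRs (red) lie above liver-only regions (orange) in all quintiles at 28 days, and at 180 days they lie below them in the 3 middle quintiles.

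Among regions that liver shared with a single other newborn tissue, adult calls differed by partner. The share called at 180 days was 67.9% (65.1 to 70.6) for liver and muscle, 64.9% for liver and lung, 59.1% for liver and heart, 56.9% for liver and kidney and 50.2% (48.9 to 51.4) for liver and spleen. At 28 days kidney was the partner with the highest share, 75.5% against 63.5% to 70.1% for the other 4. The kidney-liver ACRs also had the highest median newborn liver percentile of these pairs, 47.8 against 35.9 to 43.3. Set against the other 4 pairs together within quintiles of the newborn liver list, kidney-liver ACRs were called less often at 180 days in all 5, with 34.4% against 40.4% in the weakest, 53.8% against 59.5% in the middle and 89.6% against 91.97% in the strongest quintile, where the intervals overlapped. In the full later lists the fall between 28 and 180 days was from 75.5% to 56.9% for kidney-liver ACRs and from 69.8% to 50.2% for liver and spleen, whereas it was from 70.1% to 67.9% for liver and muscle.

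Matches to 30 consensus sequences were counted in the 200 bp around the summit of the 11454 kidney-liver ACRs outside promoters, and in kidney-only and liver-only regions in the same way. In 10 of the 30 the share in kidney-liver ACRs was above that of both single-organ classes, in 3 below both and in 17 between them. Some of the 10 margins were small, with overlapping intervals. Examples were SPI1, with 1.69% against 1.66% in liver-only regions, and USF, with 4.08% against 3.97% in kidney-only regions. CTCF, HNF1 and HNF4 had the widest margins above both. HNF1 letters occurred in 3.41% (3.10 to 3.76), against 2.04% (1.91 to 2.18) in kidney-only regions, 1.33% (1.21 to 1.47) in liver-only regions and 1.096% of all newborn regions outside promoters. The HNF1 share was above both classes on 18 of 18 autosomes.

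HNF4 letters, a sequence favoured by HNF4 over other nuclear receptors, occurred in 2.18% (1.93 to 2.47) of kidney-liver ACRs. The shares were 0.847% in kidney-only regions, 1.51% in liver-only regions and 0.697% of all regions, and kidney-liver ACRs were higher than kidney-only regions on 17 and than liver-only regions on 14 of 18 autosomes. The direct repeat GNCAAAGGT (DR1), which HNF4, RXR and PPAR receptors can share, occurred in 2.24%, against 1.02% in kidney-only and 2.31% in liver-only regions. Taken as any of HNF1, HNF4 or DR1, the share was 7.71% (7.23 to 8.21) in kidney-liver ACRs, 3.86% in kidney-only regions, 5.08% in liver-only regions, 2.84% of all regions and 0.871% in regions shared by 2 tissues other than kidney and liver. HNF1 letters stood in the same window as HNF4 or DR1 letters in only 8 regions.

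CTCF letters occurred in 3.68% (3.35 to 4.05) of kidney-liver ACRs, against 1.63% in kidney-only regions, 1.69% in liver-only regions and 2.72% of all regions. They were far more frequent in regions called in all 6 tissues, with 12.5% (11.8 to 13.2), and the kidney-liver share was below that of these regions on 18 of 18 autosomes. The letters of each consensus were also read in reverse order as a check on base composition. For HNF1 the differences to kidney-only and liver-only regions were then 0.23 and 0.22 percentage points. They were 0.051 and 0.0010 for HNF4, and -0.099 and 0.10 for CTCF. Reversed HNF1 letters occurred in 0.559% of kidney-liver ACRs, against 0.325% and 0.336%, so in relative terms they were also more frequent there. The reversed CTCF letters hold more CG pairs than the CTCF letters, so for CTCF the check did not hold CG content equal.

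The matches lay close to the summits. The selection of regions did not use this position. These consensus sequences, however, were picked for their higher shares in the 200 bp around the summit. In bins of 40 bp, CTCF letters occurred in 1.39% of kidney-liver ACRs at the summit and in 0.166% and 0.175% at the outermost bins, 280 bp away on either side. HNF4 letters likewise rose to 0.716% at the summit from 0.044% and 0.070% at the outermost bins. HNF1 letters were most frequent in the bins 40 bp to either side, with 0.882% and 0.969%, and stood at 0.698% at the summit itself. Regions called in kidney alone or liver alone had lower peaks at the same positions and similar values at the edges. The choice of these sequences favoured such lower peaks, and peak strength was not matched here.

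**Figure D3:**
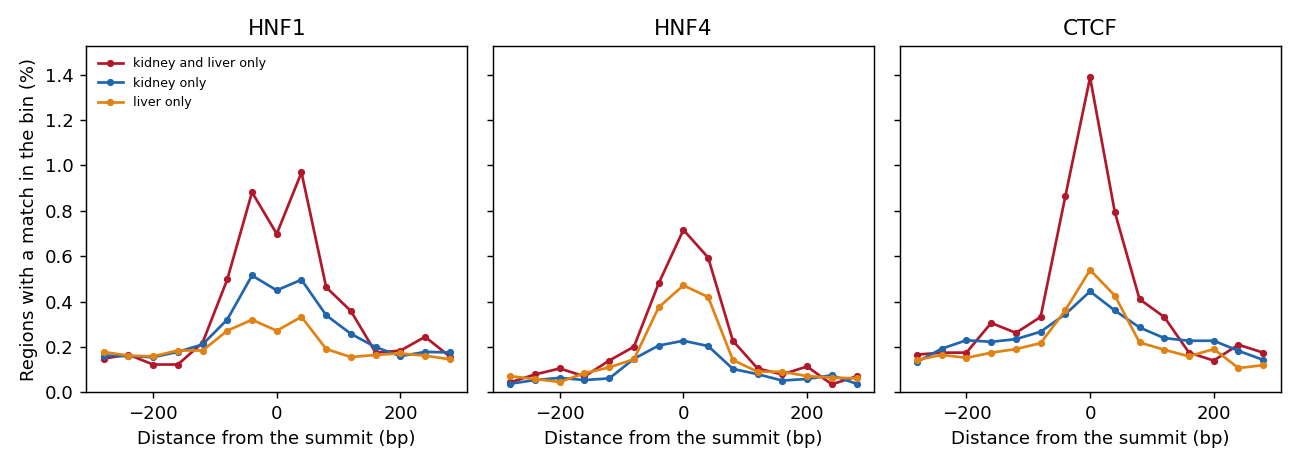
Share of regions outside promoters with HNF1, HNF4 or CTCF letters in percent, in bins of 40 bp by distance from the summit in bp, for kidney-liver ACRs (red), kidney-only (blue) and liver-only regions (orange). The red lines stand above the others within about 100 bp of the summit and meet them further out. The sequences were picked for their higher kidney-liver shares around the summit, and peak strength is not matched here.

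Since matches become more frequent with peak strength, the same shares were set side by side at matched rank of the stronger peak. In the highest quintile HNF1 letters occurred in 5.32% (4.57 to 6.18) of kidney-liver ACRs, 4.39% (3.64 to 5.29) of kidney-only and 1.17% of liver-only regions. In the next quintile the kidney-liver and kidney-only shares were 3.57% and 3.55%. The HNF1 intervals of kidney-liver and kidney-only regions overlapped in all 5 quintiles, and those of kidney-liver and liver-only regions overlapped in the 2 lowest and were apart in the 3 highest. For HNF4 the highest quintile held 3.59% (2.98 to 4.32), against 1.297% in kidney-only and 2.90% (2.33 to 3.59) in liver-only regions. The HNF4 share was above that of liver-only regions in the 2 highest quintiles. It was below it in the 3 lowest, with 0.780% against 0.902%, 1.125% against 1.36% and 1.40% against 1.69%. The HNF4 intervals of kidney-liver and liver-only regions overlapped in all 5 quintiles. CTCF letters occurred in 2.99% (2.44 to 3.66) of the highest quintile, against 1.05% and 0.880%, and in 3.31% of the lowest quintile, against 1.60% and 1.91%.

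Letters of several other factors were at levels between those of the single organs. ONECUT letters (TATTGAT) occurred in 1.42% of kidney-liver ACRs, against 4.21% in liver-only and 0.580% in kidney-only regions. CEBP letters (TTGCNNAA) occurred in 9.94%, against 14.7% and 7.30% in the same order, FOXA letters (TGTTTAC) in 4.18%, against 6.31% and 2.28%, and GATA letters (AGATAAG) in 2.70%, against 4.84% and 1.58%. LHX letters (TAATTA), a homeodomain core that other homeodomain families share, ran the other way, with 3.90% against 2.59% in liver-only and 4.88% in kidney-only regions. The reversed letters of LHX gave the same order, with 3.62%, 2.58% and 4.53%, so this difference was not particular to the LHX letters. Both strings hold only A and T, while the median share of G and C was 51.5%, 48.5% and 52% in the same order. The cause of the LHX difference was not tested.

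**Figure D4:**
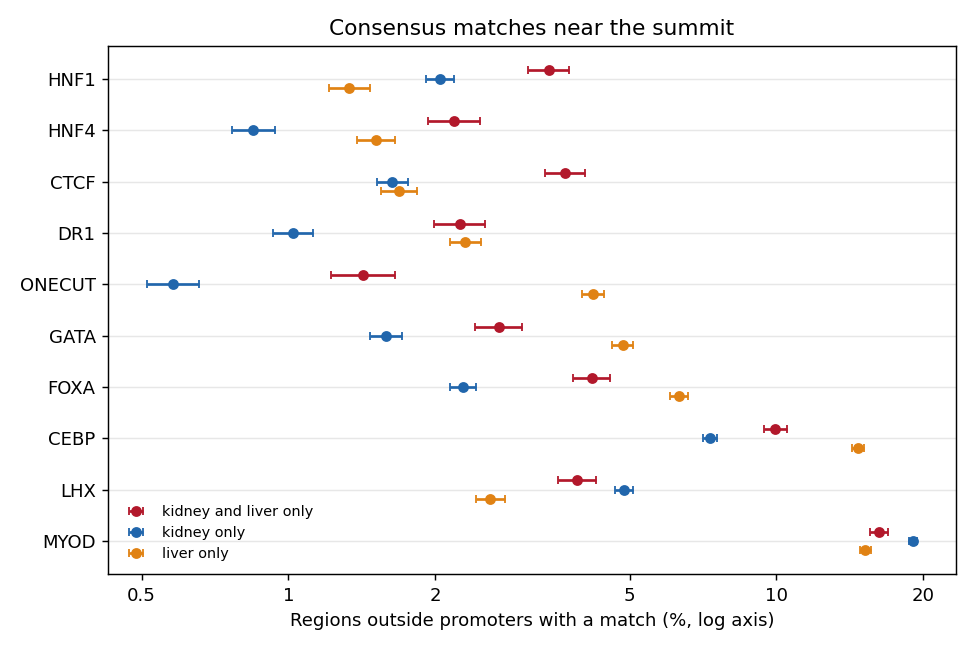
Share of regions outside promoters with a match in the 200 bp around the summit, in percent on a log axis, for 10 of the 30 consensus sequences, with Wilson 95% intervals as bars. HNF1, HNF4 and CTCF are higher in kidney-liver ACRs (red) than in kidney-only (blue) and liver-only (orange) regions, and ONECUT, GATA, FOXA and CEBP lie between them. Peak strength is not matched here.

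The letters also followed the balance between the organs within the kidney-liver ACRs. The 11454 regions outside promoters were split into 3 groups of 3818 by the kidney percentile minus the liver percentile. ONECUT letters occurred in 2.38% (1.95 to 2.92) of the regions with the relatively stronger liver peak and in 0.681% (0.465 to 0.996) of those with the relatively stronger kidney peak. GATA letters occurred in 3.98% and 1.78% and CEBP letters in 11.4% and 8.88% of these groups. HNF1 letters occurred in 2.85% (2.37 to 3.43) and 3.88% (3.31 to 4.54), and HNF4 letters in 2.41% and 1.89%, with overlapping intervals in both cases. The adult liver calls followed the same order, with 70.3% in the liver-stronger, 57.1% in the middle and 42.1% in the kidney-stronger group. The newborn liver percentile is part of this split, and adult calls rose with it, from 34.4% in the weakest to 89.6% in the strongest quintile.

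HNF1, HNF4 and CTCF letters went with different later calls. Of 391 kidney-liver ACRs with HNF1 letters, 77.0% were called in suckling and 73.9% (69.3 to 78.0) in adult liver, against 75.1% and 55.9% of the regions without them. Of 250 regions with HNF4 letters, 86.0% (81.2 to 89.8) and 78.0% (72.5 to 82.7) were called, against 74.96% and 56.0%. CTCF letters showed the opposite order in the adult, since 82.5% (78.5 to 85.8) of 422 regions were called at 28 days but 48.3% (43.6 to 53.1) at 180 days, against 74.9% and 56.8% without them.

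The median newborn liver percentile was 55.4 with HNF1 letters, 65.1 with HNF4 letters and 50.8 with CTCF letters, against 47.8 without each of them. Among the regions with a liver percentile above the median of the kidney-liver ACRs, the adult share was 83.2% with and 72.8% without HNF1 letters, 86.4% and 72.8% for HNF4, and 60.8% (54.3 to 66.996) and 73.7% for CTCF. Among the weaker regions it was 61.2% and 39.5% for HNF1, 62.5% and 39.8% for HNF4, and 34.5% (28.3 to 41.3) and 40.4% (39.1 to 41.7) for CTCF, where the intervals overlapped. The regions called at 28 days alone held CTCF letters in 5.81% and HNF1 letters in 1.28%, whereas those called at both later stages held them in 3.22% and 4.53%.

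The strongest kidney-liver ACRs, ranked by the mean of the kidney and liver percentiles, lay in or nearest to genes of varied function. The first lay at chr13:127659589-127660359, between genes and 70.7 kb from the start of CLDN1, which encodes a tight junction claudin. Its −log10 p was 94.3 and 134 in the kidney replicates and 336 and 83.7 in the liver replicates. The next stood in an intron of DLGAP2, a scaffold gene of synapses, with 61.8 and 109 in kidney and 489 and 128 in liver. Close behind were regions 10.4 kb from CYP1A2, a drug-metabolising cytochrome P450, and 32.6 kb from SNAI2, a zinc finger repressor. The others among the first 10 lay in KLHDC1, DAO, C1H18orf63 and ATP5SL, 282 kb from LOC396566, and 30.7 kb from ACADL, a mitochondrial acyl-CoA dehydrogenase. All 10 were called in suckling and in adult liver. Such calls were frequent among strong regions, with 93.7% and 78.3% in the highest quintile of this rank outside promoters.

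Among promoters the leading region was that of DAO, D-amino acid oxidase, a peroxisomal enzyme of kidney and liver. It spanned chr14:41950306-41951199, with 50.4 and 69.3 in the kidney replicates and 258 and 73.3 in the liver replicates. It was followed by the promoters of SGK2, a kinase of the glucocorticoid-regulated family, LOC110260851, QPRT, which makes NAD precursors from tryptophan, and SLC13A3, a sodium-dicarboxylate cotransporter. CPB2, an inhibitor of fibrinolysis secreted by liver, LOC106509660, CRHR2, a receptor of corticotropin-releasing peptides, P2RX6 with LRRC74B, and PKM, the muscle-type pyruvate kinase, completed the first 10. At P2RX6 the kidney values were 100 and 117 and the liver values 27.2 and 65.3. Only the CRHR2 promoter was not called in adult liver, and all 10 were called at 28 days. Of all kidney-liver ACRs, 56.9% were called in adult liver and 75.5% at 28 days.

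A kidney-liver ACR stood in the promoter of 692 of 18725 PCGs (3.7%) and in the promoter or body of 4441 (23.7%). The genes with the largest number of them were long. AUTS2 held 14, PDE4D, DLG2 and WWOX held 13 each, DAB1, SGMS1 and C4H1orf226 held 12 each, and PLCB1, TRPM3 and ZBTB20 held 11 each. Of these, SGMS1, a sphingomyelin synthase, and C4H1orf226 spanned 311 and 343 kb and had 3.86 and 3.50 per 100 kb, whereas the other 8 spanned 738 to 1971 kb and had 0.659 to 1.49.

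Genes of glucose and fructose metabolism had the highest share of promoters among the 10 gene lists. Of 18 matched genes, 8 had a kidney-liver ACR in a promoter and 13 in promoter or body. Among the 8 were KHK (ketohexokinase) and TKFC (triokinase) of the fructose pathway, G6PC (glucose-6-phosphatase), PKLR (liver pyruvate kinase), PCK2 (mitochondrial phosphoenolpyruvate carboxykinase), GLYCTK (glycerate kinase) and SLC2A2 (the glucose transporter GLUT2). Kidney-only regions stood in 3 and liver-only regions in 2 of these 18 promoters, although these classes hold 44353 and 32321 regions and reach the promoters of 7.95% and 6.57% of all PCGs. In promoter or body they reached 8 and 15 of the 18 genes, and 41.6% and 40.8% of all PCGs.

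The promoter values of this list ranged widely between libraries. At the KHK start the kidney replicates had 7.99 and 26.6 and the liver replicates 176 and 36.9. At PKLR the kidney values were 21.9 and 46.9, while liver replicate 1 had 304 and replicate 2 had 5.30. The SLC2A2 promoter was the weakest in liver replicate 1 among the best regions of these genes, with 7.503, beside 6.17 in replicate 2 and 9.63 and 23.3 in kidney. Liver replicate 1 was the higher of the liver values in 10 of the 11 promoter regions of this list. All 11 were called at 28 days and 10 of them at 180 days, in libraries that played no part in choosing them. Of all kidney-liver ACRs, 75.5% and 56.9% were called at these ages. Outside promoters, introns of FBP1 (fructose-1,6-bisphosphatase), SORD (sorbitol dehydrogenase) and SLC2A2 held the leading regions of the list, and the FBP1 region contained HNF4 letters.

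Amino acid and choline catabolism followed, with 8 of 35 genes at promoters and 24 in promoter or body. The promoters were those of DAO, SARDH and DMGDH (the dehydrogenases of sarcosine and dimethylglycine), BHMT2 (a methyltransferase of methionine synthesis), PRODH2 (hydroxyproline dehydrogenase), AGXT (alanine-glyoxylate aminotransferase), HGD (homogentisate dioxygenase) and DDC (aromatic amino acid decarboxylase). BHMT2 and DMGDH share 1 region between their starts. Liver-only regions reached 11 and kidney-only regions 1 of the 35 promoters, and 29 and 20 of the genes in promoter or body. The best SARDH region had 21.0 and 56.8 in kidney and 78.0 and 49.5 in liver, and the best regions of ALDH4A1, AFMID and DPYD stood in introns. All 8 promoter regions of the list were called at both later stages, against 51.7% of all kidney-liver ACRs.

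**Figure D5:**
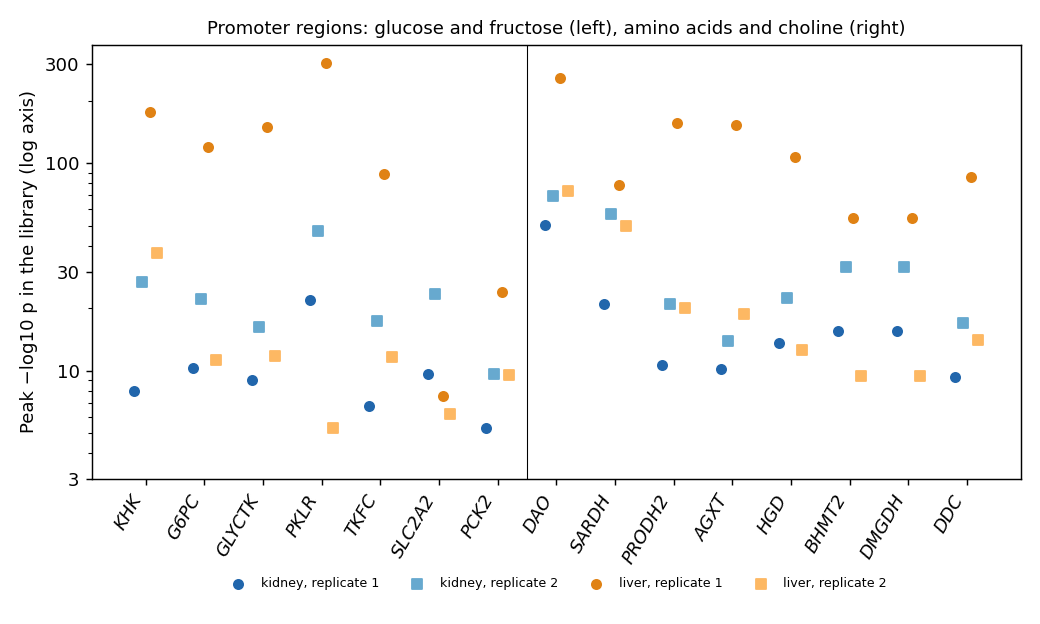
Peak −log10 p (log axis) in each of the 4 newborn libraries for the best promoter region of 7 genes of glucose and fructose metabolism (left) and 8 genes of amino acid and choline catabolism (right), where BHMT2 and DMGDH share 1 region. Liver replicate 1 (dark orange) exceeds liver replicate 2 (light orange) at every gene, and DAO is the strongest in both kidney replicates.

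Other metabolic lists also lay above the background of 3.7% and 23.7%. Of 40 genes of xenobiotic transport and conjugation, 8 had a promoter region (among them ABCC2, ABCC6, NAT8, SLC13A3, SLC16A12, SLC22A7 and UGT1A6) and 24 a region in promoter or body. NAT8, an acetyltransferase of mercapturic acid formation, had 24.9 and 73.0 in kidney and 253 and 43.4 in liver. Kidney-only regions reached 9 and liver-only regions 8 of these 40 promoters, so the list was served by all 3 classes. Of 31 genes of fatty acid oxidation and peroxisomes, 4 had a promoter region (ACSM3, CAT, ECI2 and HAO2) and 15 one in promoter or body, led by an intron of ACOX2, an oxidase of branched fatty acids and bile acid intermediates, with 34.8 and 64.6 in kidney and 197 and 84.7 in liver. Further regions stood in EHHADH and ACSM5. Kidney-only regions reached 4 and liver-only regions 3 of the 31 promoters of this list. In promoter or body they reached 14 and 20 of its genes.

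Of 29 genes of the brush border and tubular uptake, 5 had a promoter region and 13 one in promoter or body. SLC23A1, a vitamin C transporter, SLC7A9, a cystine and basic amino acid transporter, and PDZK1, a scaffold of transporters, were called at both later stages. SLC5A9, a sodium-sugar cotransporter, and SLC9A3, the sodium-proton exchanger of the brush border, were called at neither. At SLC9A3 the kidney replicates had 20.9 and 39.3 and the liver replicates 31.8 and 6.29. Kidney-only regions reached 8 and liver-only regions 2 of these 29 promoters. The leading regions outside promoters lay in SLC6A13, SLC5A10 and AQP7.

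The lowest shares of the 10 lists were those of 4 lists, which for hormone and epithelial genes were still above those of all PCGs. Promoter regions were found at 2 of 30 genes of hormone synthesis and reception (DIO1, which activates thyroid hormone, and KLB, a co-receptor of fibroblast growth factors), at 2 of 35 epithelial junction and identity genes (CLDN14 and TJP3), and at 0 of 23 erythroid and other blood cell genes and 0 of 23 endothelial and stromal genes. In promoter or body the counts were 12, 13, 3 and 5, or 40%, 37.1%, 13.04% and 21.7% against 23.7% of all PCGs, led by THPO, CYP27A1, IGFBP4, EGFR and INSR among hormone genes, and by CGN, PKD2, CDH2, OCLN and TJP1 among epithelial genes. The 3 blood cell genes were ITGAM, EPB42 and ANK1, and the 5 endothelial genes were STAB2, CDH5, FLT1, TIE1 and TEK. The THPO region lies at the promoter of the neighbouring gene CHRD. Heart-muscle regions, taken the same way as a contrast, reached 0 of the 18 glucose and 0 of the 35 amino acid genes in promoter or body, against 7.75% of all PCGs. They reached 3 of 31 fatty acid, 4 of 29 brush border, 6 of 40 transcription factor and 4 of 30 hormone genes, shares above that of all PCGs. The shares of 2 of 23 blood cell and 2 of 23 endothelial genes were also above it. Those of 3 of 40 xenobiotic and 1 of 35 epithelial genes were below it.

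Regions at listed genes of carbohydrate and fat metabolism were frequently called in adult liver. Of 20 kidney-liver ACRs at glucose and fructose genes 18 (90.0%, 69.9 to 97.2) were called at 180 days, as were 19 of 21 at fatty acid genes (90.5%, 71.1 to 97.3), against 58.3% of the 7248 kidney-liver ACRs at any PCG. For brush border genes it was 15 of 24 (62.5%, 42.7 to 78.8). The median newborn liver percentile was 58.8, 71.3 and 60.02 for these lists and 46.6 at any PCG.

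Of 40 hepatic and renal transcription factor genes, 6 had a promoter region (among them ESRRA, HNF4A, NR1H4, NR2F2 and RXRA) and 20 one in promoter or body. RXRA, the shared partner of many nuclear receptors, led with 24.4 and 42.7 in kidney and 174 and 39.9 in liver, followed by introns of CUX2 and PPARGC1A, a coactivator of gluconeogenesis. Kidney-only and liver-only regions each reached 8 of the 40 promoters of this list. In promoter or body they reached 23 and 25 of its genes. The locus of HNF4A was described region by region after its values had been seen.

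HNF4A (chr17:46783772-46847505) held 15 newborn regions in its promoters and body, of which 8 were kidney-liver ACRs, 2 were kidney-only and 0 liver-only. At the first start the kidney-liver ACR had 4.14 and 4.32 in kidney and 192 and 5.87 in liver. At a second promoter 37.4 kb downstream it had 15.4 and 29.2 in kidney and 185 and 4.28 in liver. The region 39.8 kb downstream had the highest kidney values of the 8, with 21.5 and 45.5, beside 9.53 and 4.65 in liver, and was the only one of the 8 called at neither later stage. Of the 8, 6 were called at 28 days and 7 at 180 days, beside 75.5% and 56.9% of all kidney-liver ACRs. The kidney values at the first start were the lowest of the 8 in both replicates. Liver replicate 1 ranged from 6.90 to 220 over the 8 regions and replicate 2 from 4.28 to 37.4, and the high liver values at both promoters were seen in replicate 1 alone.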

How the data were processed

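Chromatin accessibility was measured in 16 ATAC-seq libraries. As described for the study, reads had been mapped to Sscrofa11.1 with Bowtie2 and filtered with SAMtools (version 1.3.1 in the submitters' processing notes). The authors then called peaks per replicate with MACS2 and matched replicates with the IDR tool. The 8 deposited lists hold a −log10 p for every peak and replicate and a score that the authors' tool scales from the IDR, and peaks above an IDR of 0.05 remain in them. They hold no read counts, so no value was scaled by the read numbers that the study gives per library, and a missing peak is one that was not called. Since −log10 p depends on depth, it was compared between lists as percentiles.

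Members, gene lists and consensus sequences were chosen with earlier results of these data known. Genes came from RefSeq for the same assembly, and 302 of 329 listed symbols matched. A region was assigned to a promoter first, then to an exon, an intron or the 300 bp downstream of a gene. In a window, centred on the stronger peak by percentile, a motif was counted once. Named were the 10 leading regions, promoters and genes and up to 5 genes per list, and sequences were taken among them by motif. For promoter lists all genes were named, except some that are not reported here. Python 3.11.15, pandas 2.3.3, pysam 0.24.0 and SAMtools 1.23.1 were used, after checks on simulated intervals. Alternatives covered IDR, list length, overlap, distance to other tissues, promoter width, motif windows and ranking on a single replicate.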

Additional observations from a re-analysis of the deposited data

How the results depend on the processing

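Of 70 alternative settings over 8 results, 19 stayed within the counting interval or 1.5 times the value above and 51 moved beyond it. An IDR of 0.05 or lower in the kidney and liver lists left 967 kidney-liver ACRs, with 7.65% in promoters, 97.6% called at 28 days, 92.9% at 180 days, 8.96% with HNF1 letters, 4.93% with HNF4 letters, 73 promoter genes and 538 genes with a region in promoter or body. The same limit in all 6 newborn lists gave 2870, 15.7%, 98.9%, 95.5%, 4.92%, 3.06% and, for promoter or body, 1562 genes. It also dropped weaker peaks of the other 4 tissues, so regions with such a peak in the full lists could enter. The 54830 strongest peaks of each list gave 3996, 6.86%, 92.5%, 75.3%, 4.38%, 2.98%, 274 and 1900 in the order of the first setting. The peaks were also ranked on a single replicate. This left the other replicate out of the ranking only, since the consensus peaks had been matched in both. It gave 3125 to 4436 regions, 6.74% to 6.85% in promoters, 90.2% to 92.8% and 71.96% to 83.97% called at 28 and 180 days, 3.94% to 6.94% with HNF1 and 2.997% to 4.16% with HNF4 letters, 213 to 295 promoter genes and 1515 to 2027 genes in promoter or body. With no peak of another tissue within 1 kb, the promoter share was 4.47% with 428 promoter genes. Promoters of 1 kb upstream and 100 bp downstream gave 3.65% and 433 genes, and the starts of all annotated genes gave 7.53%. An IDR of 0.05 or lower in the later lists gave 33.9% at 28 days and 33.3% at 180 days, without the fall between the ages seen in the full lists. That limit left 45939 peaks at 28 days and 52733 at 180 days. Motif windows of 100 bp held HNF1 letters in 1.99% and HNF4 letters in 1.48%, those of 400 bp in 4.45% and 2.71%, and windows at the midpoint of the overlap held HNF1 letters in 2.79%. The cause of these shifts was not tested.

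The comparisons with single-organ regions were recomputed for 2 of these settings after seeing the data. In both, each class could hold regions with a weaker, dropped peak of another tissue. With the strongest peaks, 75.3% of kidney-liver ACRs and 77.5% of liver-only regions were called at 180 days, the reverse of the order in the full lists, whereas at an IDR of 0.05 or lower in all newborn lists the shares were 95.5% and 91.2%. At 28 days they were 92.5% against 83.4% and 98.9% against 94.2%. HNF1 letters occurred in 4.38% (3.77 to 5.09) of kidney-liver and 3.603% (3.30 to 3.93) of kidney-only regions with the strongest peaks, where the intervals overlapped, and in 4.92% and 2.41% under the IDR limit. With the consensus peaks ranked by each single replicate, kidney and liver came second among the pairs, with 4436 against 4705 and 3125 against 4431 for heart and muscle. No paired analysis was possible because the results are counts of calls that each list makes from both replicates together, and come from no test. Calls were not adjusted for the depth of the libraries, and a region absent from a list was not called there, which is no proof of closed chromatin.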
